A study of Mus musculus with 15 samples.

Results

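The 39 genes described here are genes of the response to low oxygen and of glycolysis, chosen by name from a fixed list, of 23393 named genes in the deposited count table. They were followed through all 15 RNA-seq libraries of mouse neural progenitors. Of the 39, 38 passed the filter on low counts, which asked for at least 1 CPM (a gene's count scaled to a common library size) in at least 2 libraries. The remaining gene, Eno1, had 0 to 3 counts in each library and 0 in 11 of them. Gm5506, an older symbol of its near-identical copy Eno1b, had 1536 to 2612 counts per library, and how reads that match both were counted is not given in the sources used here. No statement is therefore made on Eno1.

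The progenitors were made from 129/Ola embryonic stem cells. The stem cells had been kept without serum on sparse feeders with LIF and the inhibitors CHIR99021 and PD184352. They were then freed of feeders, grown in suspension for 2 days and given 500 nM retinoic acid, which turns them toward a neural fate. Doxycycline at 1 µg/ml was applied for 12 hours to switch on a transgene behind a doxycycline-responsive promoter (TRE). The transgene encoded a ventral spinal cord transcription factor, which was Nkx2.2, Nkx6.1 or Olig2, or a pair of them on 1 transcript joined by the P2A peptide, Nkx6.1-P2A-Nkx2.2 or Nkx6.1-P2A-Olig2. Each of these 5 lines had 2 libraries. The parental line mA2.lox.Cre, called the Cre control here, had 5 libraries. Whether a line was 1 clone, whether the replicates were separate cultures, and the oxygen level of the cultures are not given in the labels. The p-values therefore rest on differences among these libraries that may be only technical. The second label line of each library opens with a number (210, 211, 212, 214, 215, 232 or 234) whose meaning is not given. It is called the label number here.

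Cells sense oxygen through prolyl hydroxylases (the Egln genes), which mark the alpha subunits of the hypoxia-inducible factors (HIF) for destruction when oxygen is plentiful. When oxygen is scarce the HIF proteins persist, pair with Arnt and bind short motifs near their target genes. The targets raise glucose uptake, glycolysis and lactate export, hold pyruvate back from the mitochondria and call for new vessels. Embryonic stem cells also run a high rate of glycolysis, which falls as they differentiate, so these transcripts report on differentiation and metabolism as well as on oxygen. HIF alpha subunits are controlled mainly as proteins, so their mRNA does not measure their activity.

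Library totals ran from 12251404 to 19378519 counts, and the lowest Cre control total, 17970830, lay above the highest total of a transgenic library, 17708366. The members held 0.762% to 1.06% of the counts of a library. Each transgene was high in its own lines: Nkx2-2 ran from 359 to 507.5 CPM in lines that carry it and from 0 to 1.406 CPM in the others, Nkx6-1 from 613.5 to 680.3 against 10.83 to 65.43 CPM, and Olig2 from 425.9 to 636.7 against 1.995 to 45.68 CPM. The 10 neural progenitor markers, Sox1, Sox2, Nes and Vim among them, were detected in every library. Markers of other cell types were detected as well. The 6 pluripotency markers (Pou5f1, Nanog, Zfp42, Esrrb, Klf4 and Tdgf1) summed to between 82.49 and 249.9 CPM, the 6 endoderm markers to between 228.7 and 695.1 CPM, and the 7 feeder fibroblast markers to between 30.38 and 116.2 CPM. None of these markers was at 0 in any library. The progenitor gene Pax6 fell in all 5 lines, by log2 fold changes from -1.13 with Olig2 to -3.44 with Nkx6.1-P2A-Nkx2.2. With Nkx6.1 the progenitor genes Sox2 and Cdh2 also fell (-0.63 and -1.11), the progenitor markers had a median log2 fold change of -0.74 and the 8 neuron markers one of -0.54. The endoderm gene Sox17 fell in the 3 lines that carry Nkx6.1 (-0.64 to -0.81). Of the 6 mesoderm markers, Mesp1 and Msgn1 were each at 0 in 13 of the 15 libraries, and T, Tbx6, Meox1 and Tcf15 in none. Meox1 ran from 7.854 to 32.27 and Tcf15 from 4.544 to 9.006 CPM. In the Olig2 line Meox1 fell (-1.15).

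In these cells the members spanned a wide range of levels, compared here per kilobase of exon. In the Cre control the highest were pyruvate kinase Pkm at 345.5 ± 20.94 CPM per kb (SD, n = 5), aldolase Aldoa at 328.4 ± 49.54, and the glucose transporter Slc2a1 at 265 ± 29.58. Ldha, which makes lactate, followed at 206.1 ± 23.61, and the neuronal and embryonic glucose transporter Slc2a3 at 160.8 ± 41.97 CPM per kb. The SD ranges of neighbours overlapped for Pkm and Aldoa, for Aldoa and Slc2a1, and for Ldha and Slc2a3. The lowest tested members were the vessel-active peptide adrenomedullin, Adm, at 0.598 ± 0.467 CPM per kb and the carbonic anhydrase Car9, a much-used hypoxia marker, at 0.288 ± 0.0678. Hif1a stood at 56.82 ± 2.9 and its relative Epas1, which encodes HIF-2 alpha, at 24.26 ± 8.111 CPM per kb. The related glycolytic isozymes were unequal too, with Pfkl at 53.74 ± 6.742, Pfkm at 18.71 ± 0.434 and Pfkp at 1.33 ± 0.527 CPM per kb.

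Between 0 and 3 members passed the test per line, a count that rose in some lines once the label number was a term in the fit. Lines were set against the Cre control by edgeR's quasi-likelihood test, with p-values adjusted by the Benjamini-Hochberg method over 13989 genes and a threshold of 0.05. In Nkx6.1-P2A-Nkx2.2 cells 3 of 38 members rose and 0 fell, where 1.09% of all genes rose, 1.73% fell and 2.82% passed in either direction. The 3 were Ddit4, Vegfa and Higd1a. In the Nkx6.1 line 1 member rose, Ddit4, where 0.172% of all genes rose, 0.658% fell and 0.829% passed. In Nkx6.1-P2A-Olig2 cells 1 member fell, Hif1a, where 1.07% of all genes rose, 1.81% fell and 2.88% passed. In the Nkx2.2 line 0 of 38 passed (0.722% of all genes, 0.279% higher and 0.443% lower), with 5 at an unadjusted p under 0.05 (8.65% of all genes). In the Olig2 line 0 of 38 passed (1.82%, 1.41% higher and 0.415% lower), with 8 at an unadjusted p under 0.05 (12.7%). DESeq2 called 0 members in the Nkx2.2 line and 2 in the Olig2 line, Vegfa and Ero1l. Across the 6 groups together an F-test passed 2 members, Hif1a and Ddit4, against 6.27% of all genes. All 5 comparisons share the 5 Cre control libraries. With the label number as a term, 19 members passed in Nkx6.1-P2A-Nkx2.2 cells (8.01% of all genes) and 11 in the Olig2 line (14.8%). Counterparts were 5 in Nkx6.1-P2A-Olig2 cells (9.31%) and 0 in the Nkx2.2 line (1.9%). Numbers 211 and 215 have no control library. In that fit the Nkx6.1 line therefore rests on its replicate 1 against control replicate 1 alone. The only direct pair of the Olig2 line is its replicate 1 against control replicate 3, the control with the lowest median of the members. Leaving out 1 library changed the share of all genes that passed as well as the counts of members given next. The count of 3 in Nkx6.1-P2A-Nkx2.2 cells was 0 without their replicate 1, 1 without their replicate 2 or control replicate 2 or 4, and 5 without control replicate 1. The count of 1 with Nkx6.1 was 6 without control replicate 1 and 0 without Nkx6.1 replicate 1 or control replicate 2, 3 or 4. With Olig2 it was 1 without Olig2 replicate 1, either Nkx6.1-P2A-Olig2 library or control replicate 1. Over the 6 groups it was 1 without replicate 1 of Nkx6.1-P2A-Nkx2.2 and 4 without control replicate 1.

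In each line more members had a positive than a negative log2 fold change. Their median log2 fold change was 0.05 in the Nkx2.2 line, 0.26 in the Nkx6.1 line, 0.18 in the Olig2 line, 0.33 in Nkx6.1-P2A-Nkx2.2 cells and 0.11 in Nkx6.1-P2A-Olig2 cells, while the median of all genes tested lay between -0.005 and 0 in each. With the label number as a term the Nkx6.1 median turned to -0.077, with 14 of 38 members positive, and the others were 0.06, 0.28, 0.34 and 0.11. Number 211 occurs only in Nkx6.1 replicate 2, so that fit sets only Nkx6.1 replicate 1 against control replicate 1. Control replicate 1 had the highest median of the members among the controls. The Nkx6.1-P2A-Olig2 median was -0.12, with 12 of 38 positive, without replicate 2 of that line. Beside the Nkx6.1 shift, the progenitor markers summed to 570.7 to 694.6 CPM in that line, below the controls at 775.6 to 1132 CPM, and the neuron markers to 60.07 to 70.48 against 76.58 to 111.5 CPM. Their part in the members' values was not tested. A positive value was found in 24, 31, 35, 33 and 24 of the 38 members, where about as many of all genes were positive as negative (48.7% to 50%). In Nkx6.1-P2A-Nkx2.2 cells 21 members had an unadjusted p under 0.05, 20 of them positive, against 14.5% of all genes in either direction. The counterparts were 11 of 38 against 16.8% in the Nkx6.1 line and 7 of 38 against 16.7% in Nkx6.1-P2A-Olig2 cells. Both libraries of Nkx6.1-P2A-Nkx2.2 cells lay above all 5 controls in 20 of 38 members, or 52.6%, against 11% of all genes. In the Nkx6.1 line that was so for 8 members (21.1% against 9.69%), in the Olig2 line for 6 (15.8% against 7.93%), in the Nkx2.2 line for 4 (10.5% against 5.74%) and in Nkx6.1-P2A-Olig2 cells for 4 (10.5% against 12.6%). Both libraries lay below all controls for 1 member at most per line: Egln3 with Nkx2.2 (6.66% of all genes), and Hif1a with Nkx6.1 (10.5%), with Nkx6.1-P2A-Nkx2.2 (10.1%) and with Nkx6.1-P2A-Olig2 (10.4%). With Olig2 there were 0 (8.01%).

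**Figure D1:**
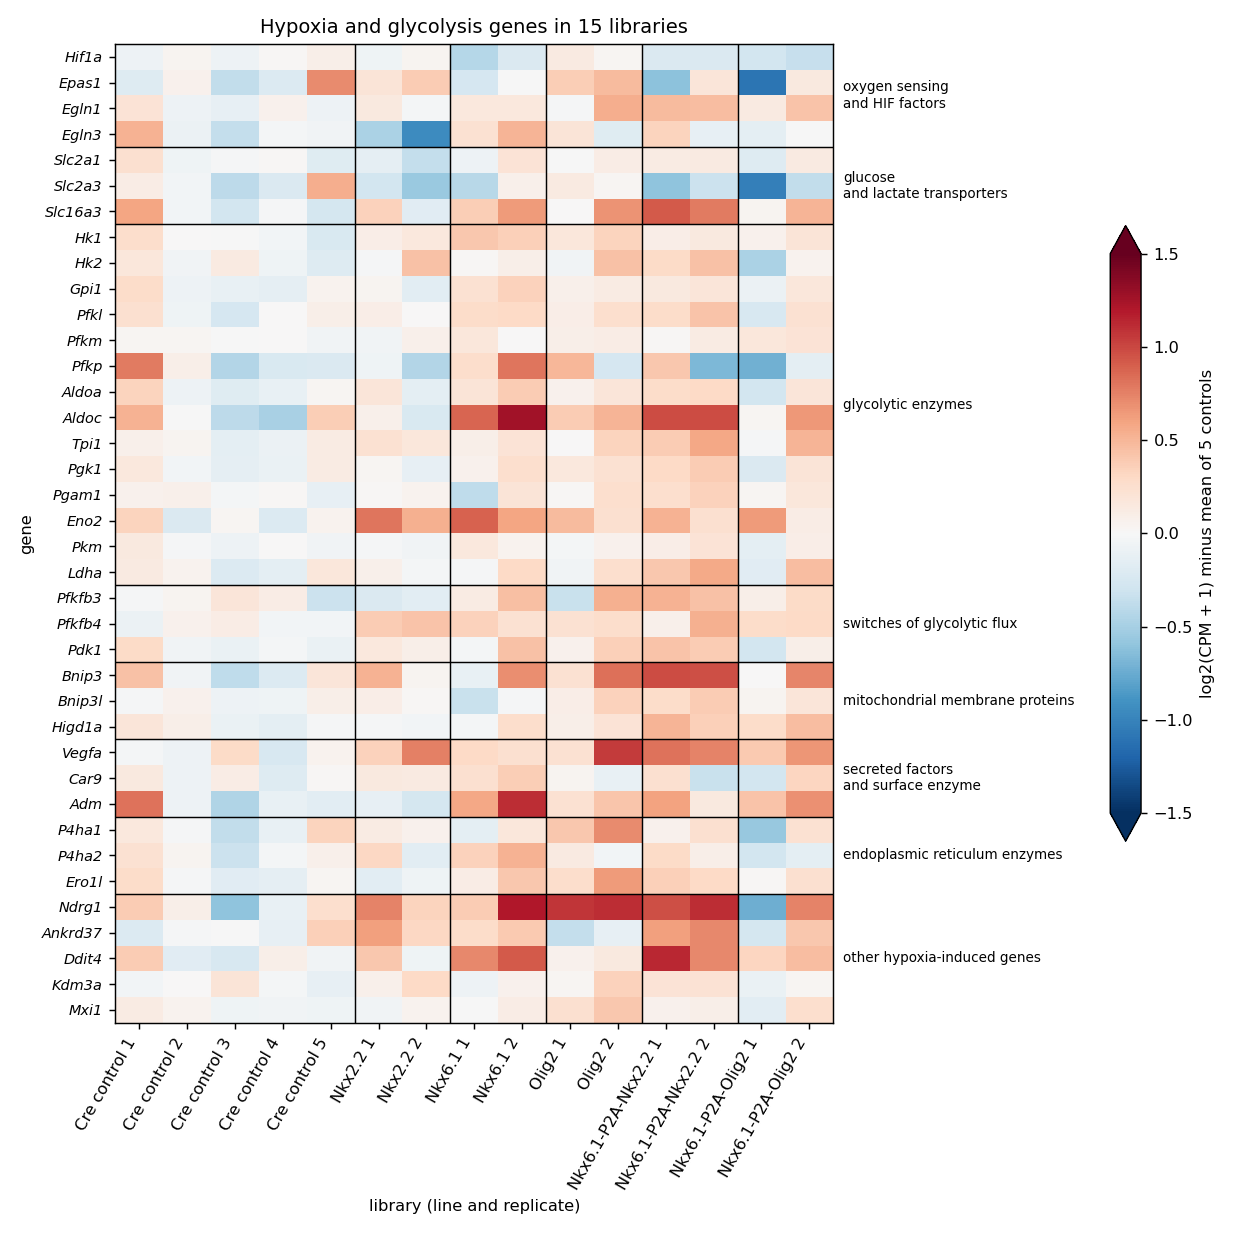
Heat map of the 38 tested members (rows, grouped by role) in the 15 libraries (columns), coloured by log2(CPM + 1) minus the mean of the 5 Cre controls, with red higher and blue lower. Replicate 1 of Nkx6.1-P2A-Olig2 cells is bluer than replicate 2 in most rows, and both Nkx6.1-P2A-Nkx2.2 libraries are red in most rows.

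Ddit4, a stress-induced inhibitor of the growth kinase mTORC1, had the smallest adjusted p of the members in the main edgeR comparisons of lines with the Cre control. It lies on chromosome 10 (chr10:59949669-59951834 in GENCODE M21 on mm10, minus strand). The Cre control libraries held 196.8, 135, 127.8, 161.3 and 145.7 CPM, a mean of 153.3 ± 27.41 (SD, n = 5). The Nkx6.1-P2A-Nkx2.2 libraries held 332.3 and 250.3 CPM, and those of the Nkx6.1 line 249.9 and 286.6 CPM. All 4 lay above every control. The log2 fold change was 0.93 ± 0.16 (SE), or 1.9-fold, in Nkx6.1-P2A-Nkx2.2 cells (edgeR adjusted p = 0.00614) and 0.81 ± 0.16, or 1.75-fold, in the Nkx6.1 line (edgeR adjusted p = 0.0366). The other lines overlapped the controls: 200.2 and 145.4 CPM with Nkx2.2, 158.5 and 167.7 with Olig2, and 190.4 and 209.4 with Nkx6.1-P2A-Olig2 (log2 fold change 0.38 ± 0.16, edgeR adjusted p = 0.252). In Nkx6.1-P2A-Nkx2.2 cells the edgeR call was lost only when replicate 1 of that line was left out (adjusted p = 0.16). In the Nkx6.1 line it was lost without either Nkx6.1 library or without control replicate 2, 3 or 4, with edgeR adjusted p between 0.0725 and 0.285. Against the control library of the same label number, Ddit4 was higher by 1.04 and 0.78 on the log2 scale in the 2 Nkx6.1-P2A-Nkx2.2 libraries and by 0.34 in replicate 1 of the Nkx6.1 line; replicate 2 of the Nkx6.1 line has no control of its number. With the label number as a term, the Nkx6.1 value was 0.34, and it rests on Nkx6.1 replicate 1 and control replicate 1 alone. That fit by edgeR called Ddit4 with Nkx6.1-P2A-Nkx2.2 (0.92, adjusted p = 0.00103) and also with Olig2 (0.47, adjusted p = 0.0468).

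Vegfa encodes the main growth factor for blood vessels and is a classical HIF target (chr17:46016993-46032369, minus strand). The controls held 72.62, 70.26, 90.96, 62.66 and 77.02 CPM. The Nkx6.1-P2A-Nkx2.2 libraries held 130.9 and 124.5 CPM, both above every control, a log2 difference of 0.77 ± 0.18 or 1.71-fold (edgeR adjusted p = 0.0401). The Nkx2.2 libraries, at 94.53 and 126.4 CPM, and the Nkx6.1-P2A-Olig2 libraries, at 97.72 and 117.8 CPM, were also above every control without passing (log2 fold changes 0.56 ± 0.18 and 0.53 ± 0.18, edgeR adjusted p = 0.281 and 0.159). Once the label number was a term, edgeR called Vegfa with Nkx6.1-P2A-Olig2 as well (0.63, adjusted p = 0.0152). The Olig2 libraries differed from each other, at 87.13 and 154.4 CPM (0.69 ± 0.18, edgeR adjusted p = 0.088), and the Nkx6.1 libraries stood at 91.54 and 87.72 CPM. The Nkx6.1-P2A-Nkx2.2 call was lost without either library of its own line, either Nkx6.1 library, replicate 2 of Nkx6.1-P2A-Olig2, or control replicate 1, 2 or 4, with edgeR adjusted p between 0.0529 and 0.334. The Olig2 line passed when its replicate 1 was left out (1.05, edgeR adjusted p = 0.0068).

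Higd1a, a small protein of the inner mitochondrial membrane induced by low oxygen, lies on chromosome 9 (chr9:121848563-121858362, minus strand). Its controls held 35.97, 33.75, 29.47, 28.58 and 31.22 CPM. The Nkx6.1-P2A-Nkx2.2 libraries, at 45.55 and 40.96 CPM, and the Nkx6.1-P2A-Olig2 libraries, at 38.6 and 44.14 CPM, all lay above the controls. The first line passed (0.44 ± 0.11, 1.36-fold, edgeR adjusted p = 0.0465) and the second did not (0.38 ± 0.11, edgeR adjusted p = 0.0838, but 0.0158 with the label number as a term). The lines differed from each other by 0.06 ± 0.13 with a 95% interval from -0.22 to 0.35. The single-factor lines overlapped the controls, at 31.31 and 30.65 with Nkx2.2, 31.02 and 38.1 with Nkx6.1, and 33.73 and 36.81 CPM with Olig2. The call was close to the threshold: it was lost without any one Nkx2.2, Olig2, Nkx6.1-P2A-Nkx2.2 or Nkx6.1-P2A-Olig2 library or without control replicate 2, 3, 4 or 5, with edgeR adjusted p between 0.0511 and 0.384.

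Hif1a, the oxygen-labile subunit of HIF-1 (chr12:73901375-73947530, plus strand), was lower. Its controls held 316.4, 344.8, 318.4, 339.5 and 355.8 CPM. The Nkx6.1-P2A-Olig2 libraries held 276.5 and 263 CPM, the Nkx6.1-P2A-Nkx2.2 libraries 288.2 and 288.4, and the Nkx6.1 libraries 248.1 and 286.9. All 6 libraries that carry Nkx6.1 lay below every control and below the Nkx2.2 libraries (319.1 and 344.6) and the Olig2 libraries (367.2 and 342.8). DESeq2 called Hif1a with Nkx6.1-P2A-Olig2 and with Nkx6.1 (adjusted p = 0.002 and 0.00292). In the edgeR fit the log2 fold change was -0.31 ± 0.07 (0.805-fold, edgeR adjusted p = 0.0386) with Nkx6.1-P2A-Olig2. It was -0.33 ± 0.07 (edgeR adjusted p = 0.0607) with Nkx6.1 and -0.22 ± 0.07 (edgeR adjusted p = 0.158) with Nkx6.1-P2A-Nkx2.2, so by edgeR only Nkx6.1-P2A-Olig2 passed. That call was lost without either library of its own line, either Nkx6.1-P2A-Nkx2.2 library, or control replicate 2 or 4, with edgeR adjusted p between 0.0562 and 0.304, and the Nkx6.1 line passed without control replicate 1 or Nkx6.1 replicate 2 (edgeR adjusted p = 0.0394 and 0.0482).

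**Figure D2:**
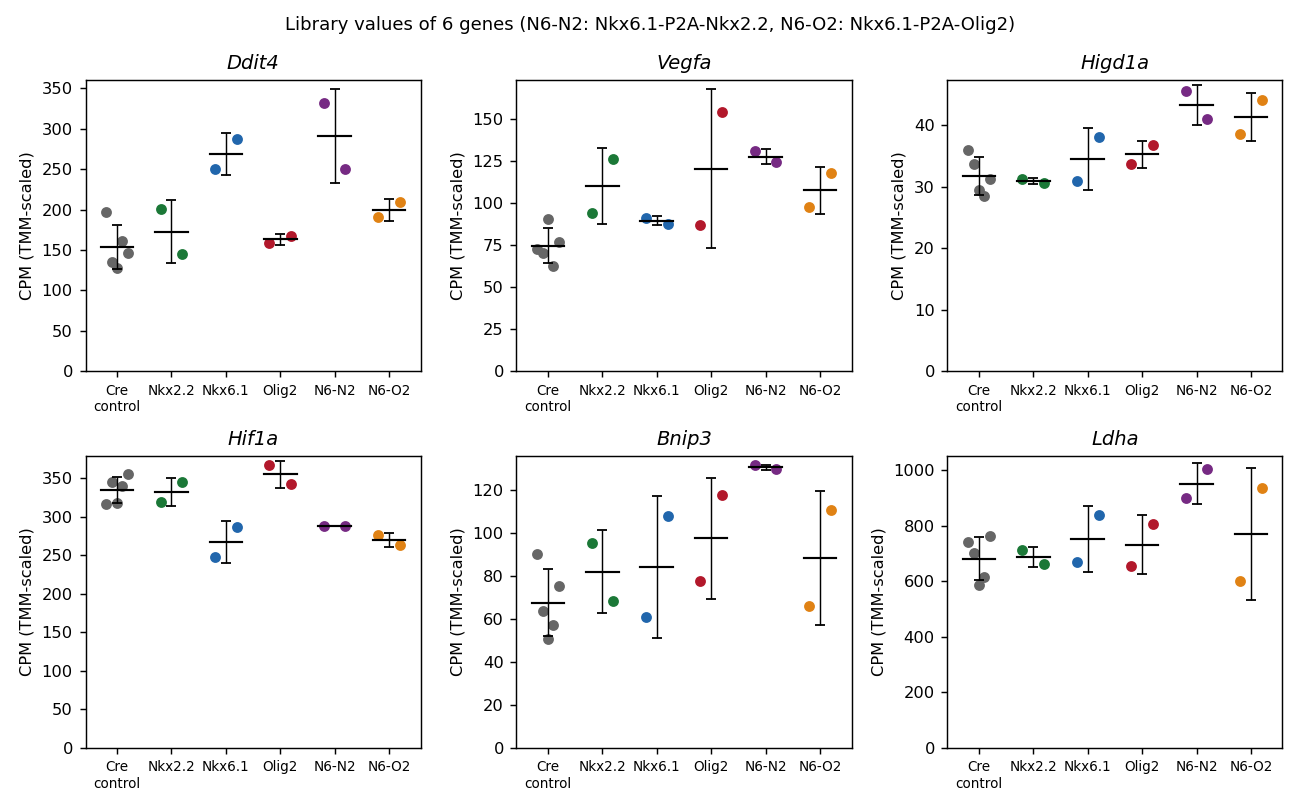
CPM (linear axis from 0) of 6 members in every library (points), with the mean (bar) and SD (whisker) of each group of 5 controls or 2 line libraries. Ddit4, Vegfa and Higd1a in Nkx6.1-P2A-Nkx2.2 cells and Hif1a in the lines carrying Nkx6.1 are separated from all controls, whereas Bnip3 and Ldha in Nkx6.1-P2A-Olig2 cells have 1 library within the control range and 1 above it.

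To show what lies before the start sites of the 3 members that rose and of 1 further HIF target, the promoter windows of Ddit4 (chr10:59951721-59952020, minus strand), Vegfa (chr17:46032328-46032627, minus strand), Higd1a (chr9:121857747-121858046, minus strand) and Bnip3 (chr7:138909457-138909756, minus strand) are printed 5′ to 3′ from RefSeq on GRCm38.p6. Each holds 250 bases before and 50 after a start site. Capitals mark the HIF core motif, searched as ACGTG or GCGTG on both strands, so also as CACGT or CACGC, with overlapping matches kept.
Ddit4: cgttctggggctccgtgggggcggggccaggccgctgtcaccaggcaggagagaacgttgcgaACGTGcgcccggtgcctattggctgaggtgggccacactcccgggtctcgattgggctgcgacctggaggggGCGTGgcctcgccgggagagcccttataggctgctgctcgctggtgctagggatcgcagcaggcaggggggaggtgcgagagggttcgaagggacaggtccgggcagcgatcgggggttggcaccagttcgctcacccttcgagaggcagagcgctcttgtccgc
Vegfa: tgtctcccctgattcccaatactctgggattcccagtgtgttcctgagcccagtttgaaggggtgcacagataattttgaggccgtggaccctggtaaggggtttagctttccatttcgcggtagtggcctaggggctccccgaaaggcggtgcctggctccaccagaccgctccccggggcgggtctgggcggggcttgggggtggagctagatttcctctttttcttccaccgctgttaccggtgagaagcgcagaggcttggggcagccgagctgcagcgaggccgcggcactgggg
Higd1a: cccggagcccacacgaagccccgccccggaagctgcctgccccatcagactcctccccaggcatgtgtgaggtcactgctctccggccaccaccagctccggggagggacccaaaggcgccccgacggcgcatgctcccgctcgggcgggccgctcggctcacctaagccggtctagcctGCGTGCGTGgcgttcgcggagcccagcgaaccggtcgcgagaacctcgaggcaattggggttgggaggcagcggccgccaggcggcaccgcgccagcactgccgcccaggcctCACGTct
Bnip3: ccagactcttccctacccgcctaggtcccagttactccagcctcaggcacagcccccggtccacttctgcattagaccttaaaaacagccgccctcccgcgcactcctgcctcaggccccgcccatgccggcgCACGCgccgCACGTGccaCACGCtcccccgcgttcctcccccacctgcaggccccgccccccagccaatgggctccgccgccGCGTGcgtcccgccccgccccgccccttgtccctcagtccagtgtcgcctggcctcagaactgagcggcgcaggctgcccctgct
Ddit4 had 2 matches, Higd1a 3, Bnip3 5 and the printed window of Vegfa 0, while its other listed window had 2. Windows were listed for 35 of the 39 members. Among their 53 windows, 41 held the motif (77.4%), against 43.8% of all 32851 windows of the same length. With ACGTG alone the shares were 54.7% and 19.6%. The member windows were also richer in G and C, with a median of 63% against 52.7%, and the part of base composition in the shares was not tested. A match is a run of letters and not a measured binding site.

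Among the oxygen sensors, the hydroxylase Egln1 was above all controls in Nkx6.1-P2A-Nkx2.2 cells (140.3 and 139.2 against 92.64 to 117 CPM) without passing (0.46 ± 0.13, edgeR adjusted p = 0.0873; DESeq2 adjusted p = 0.035). Egln3, a hydroxylase that is itself a HIF target, was lowest in the Nkx2.2 line, at 17.01 and 12.07 CPM, below the controls at 35.09, 22.5, 18.58, 23.47 and 23.24 CPM, also without passing (-0.75 ± 0.23, edgeR adjusted p = 0.242). The other lines overlapped the controls, at 28.42 and 34.53 with Nkx6.1, 27.62 and 21.1 with Olig2, 30.58 and 22.06 with Nkx6.1-P2A-Nkx2.2, and 21.67 and 23.94 CPM with Nkx6.1-P2A-Olig2. Epas1 differed widely between libraries of 1 group. Its controls held 113.8, 136.6, 100.7, 113.4 and 213.3 CPM, and the Nkx6.1-P2A-Olig2 libraries 60.34 and 144.1 CPM. Those of Nkx6.1-P2A-Nkx2.2 cells held 85.06 and 148.7, of Nkx2.2 149.5 and 169.6, of Nkx6.1 109.1 and 130.4, and of Olig2 169.4 and 181.3 CPM. No line separated fully from the controls. Once the label number was a term, edgeR called Epas1 higher with Olig2 (0.57, adjusted p = 0.0179). In that fit it was lower with Nkx6.1-P2A-Nkx2.2 (-0.47, adjusted p = 0.0309) and with Nkx6.1-P2A-Olig2 (-0.72, adjusted p = 0.00355).

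The glucose transporters Slc2a1 and Slc2a3 passed in no line by edgeR or DESeq2. With the label number as a term in edgeR, Slc2a3 was lower in both P2A lines (-0.62 and -0.87, adjusted p = 0.00501 and 0.000761) and higher with Olig2 (0.47, adjusted p = 0.0278). Slc2a1, the basal transporter and a standard HIF target, held 1096, 887.8, 913.1, 934.3 and 814.1 CPM in the controls. It held 842.7 and 720.6 in the Nkx2.2 line, 874.3 and 1063 in the Nkx6.1 line, 921.6 and 1001 in the Olig2 line, 1008 and 1014 in Nkx6.1-P2A-Nkx2.2 cells, and 805.9 and 1016 in Nkx6.1-P2A-Olig2 cells. Its log2 fold change in Nkx6.1-P2A-Nkx2.2 cells was 0.12 ± 0.12 with a 95% interval from -0.13 to 0.38. Slc2a3 was at the negative end in the same line (-0.49 ± 0.24, edgeR adjusted p = 0.367) and in Nkx6.1-P2A-Olig2 cells (-0.70 ± 0.24, edgeR adjusted p = 0.148). Its control libraries spread widely, over 1223, 1107, 863.6, 978 and 1652 CPM, and the line libraries held 936.4 and 770.3 (Nkx2.2), 851.2 and 1195 (Nkx6.1), 1248 and 1163 (Olig2), 749.4 and 907.9 (Nkx6.1-P2A-Nkx2.2), and 555.2 and 879.5 CPM (Nkx6.1-P2A-Olig2). Slc16a3, which exports lactate, was above all controls in Nkx6.1-P2A-Nkx2.2 cells, at 164.3 and 149.9 against 71.65 to 131.3 CPM (0.82 ± 0.23, edgeR adjusted p = 0.0879; DESeq2 adjusted p = 0.0178).

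Of the 14 glycolytic enzymes tested, 0 passed in any line by edgeR. DESeq2 called Aldoc and Eno2 with Nkx6.1 (adjusted p = 0.0068 and 0.0193) and Aldoc and Tpi1 with Nkx6.1-P2A-Nkx2.2 (adjusted p = 0.0131 and 0.0155). With the label number as a term, edgeR called Hk2, Aldoc, Tpi1, Pgk1, Pgam1 and Ldha with Nkx6.1-P2A-Nkx2.2 and Pfkl, Aldoc and Pgk1 with Olig2, all higher. In Nkx6.1-P2A-Nkx2.2 cells 13 of the 14 had a mean above the controls. Both libraries were above all controls in 7, where this was so for 11% of all genes: Hk2, Pfkl, Aldoc, Tpi1, Pgk1, Pgam1 and Ldha. The counts of enzymes above all controls were 4 in the Nkx6.1 line (9.69% of all genes), 2 in the Nkx2.2 line (5.74%), and 1 each in the Olig2 line (7.93%) and the Nkx6.1-P2A-Olig2 line (12.6%). The largest difference was that of Aldoc, a brain-enriched aldolase, with 28.08 and 28.07 CPM in Nkx6.1-P2A-Nkx2.2 cells and 26.05 and 34.26 CPM in the Nkx6.1 line against 9.544 to 20.15 CPM in the controls (0.97 ± 0.26 and 1.07 ± 0.26, edgeR adjusted p = 0.0698 and 0.0685). Eno2, the neuronal enolase, was above all controls with Nkx2.2 (10.08 and 8.195 CPM) and Nkx6.1 (10.74 and 8.617 CPM), against 4.479 to 7.028 CPM, and passed in neither (0.75 ± 0.21 and 0.83 ± 0.21, edgeR adjusted p = 0.171 and 0.0766).

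Ldha held 742.7, 702.5, 586.3, 615.3 and 764 CPM in the controls and 899.2 and 1005 CPM in Nkx6.1-P2A-Nkx2.2 cells, both above them (0.48 ± 0.15, edgeR adjusted p = 0.133). The Nkx6.1-P2A-Olig2 libraries stood far apart, at 602.1 and 937.6 CPM. The other lines held 712.9 and 663.2 (Nkx2.2), 670.1 and 837.4 (Nkx6.1), and 656.5 and 808.1 CPM (Olig2). Pgk1, which makes ATP in glycolysis, held 238, 206.9, 193.2, 199.1 and 231.6 CPM in the controls and 263 and 276.9 CPM in Nkx6.1-P2A-Nkx2.2 cells (0.34 ± 0.11, edgeR adjusted p = 0.141). It held 183 and 243.9 CPM with Nkx6.1-P2A-Olig2, 218.1 and 195.2 with Nkx2.2, 223.1 and 254.3 with Nkx6.1, and 237.4 and 249.6 with Olig2. These enzymes have many processed copies in the genome, and how reads of such copies were counted is not given in the sources used here.

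The switches that set the flux through glycolysis passed in no line by edgeR or DESeq2, and with the label number as a term edgeR called Pdk1 with Nkx6.1-P2A-Nkx2.2 (adjusted p = 0.0202). Pdk1, the kinase that keeps pyruvate out of the citric acid cycle, held 96.26, 76.15, 73.48, 77.03 and 73.64 CPM in the controls, 106.7 and 103.2 CPM in Nkx6.1-P2A-Nkx2.2 cells (0.40 ± 0.14, edgeR adjusted p = 0.174), and 64.78 and 83.8 CPM in Nkx6.1-P2A-Olig2 cells. It held 87.99 and 83.95 CPM with Nkx2.2, 77.36 and 106.9 with Nkx6.1, and 82.22 and 101.6 with Olig2. Pfkfb4, which makes the activator of phosphofructokinase, was above all controls in 4 lines, those of Nkx2.2, Nkx6.1, Olig2 and Nkx6.1-P2A-Olig2, by small amounts (0.27 to 0.44 on the log2 scale). In Nkx6.1-P2A-Nkx2.2 cells its libraries held 9.013 and 12.77 against up to 9.264 CPM in the controls. Pfkfb3, its relative, was above all controls only in Nkx6.1-P2A-Nkx2.2 cells (36.94 and 34.96 against 20.25 to 29.15 CPM; 0.48 ± 0.19, edgeR adjusted p = 0.248).

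Of the mitochondrial membrane proteins, Bnip3 and Bnip3l, which mark mitochondria for removal, were both above all controls in Nkx6.1-P2A-Nkx2.2 cells. Bnip3 held 90.22, 63.75, 50.66, 57.21 and 75.16 CPM in the controls and 131.3 and 129.7 CPM in that line, the highest levels of all libraries (0.95 ± 0.26, edgeR adjusted p = 0.0752; DESeq2 adjusted p = 0.0108). In each of the other lines 1 library was high and the other was not: 95.41 and 68.12 with Nkx2.2, 60.92 and 107.6 with Nkx6.1, 77.58 and 117.4 with Olig2, and 66.12 and 110.4 CPM with Nkx6.1-P2A-Olig2. When the label number was a term, edgeR called Bnip3 with Nkx6.1-P2A-Nkx2.2 and with Olig2 (0.998 and 0.876, adjusted p = 0.00421 and 0.0146). Bnip3l held 175.9 and 188.3 CPM in Nkx6.1-P2A-Nkx2.2 cells against 137.8 to 153.7 CPM (0.33 ± 0.09, edgeR adjusted p = 0.0815; DESeq2 adjusted p = 0.0393).

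The collagen prolyl hydroxylases and the disulfide-forming oxidase of the endoplasmic reticulum passed in no line by edgeR, while DESeq2 called Ero1l with Olig2 (adjusted p = 0.0464). With the label number as a term, edgeR called P4ha1, P4ha2 and Ero1l with Olig2 and Ero1l with Nkx6.1-P2A-Nkx2.2. P4ha1 was highest in the Olig2 line, at 255.4 and 314 CPM, against 215.2, 190.2, 148.4, 178.2 and 242.8 CPM in the controls (0.55 ± 0.20, edgeR adjusted p = 0.244). Its libraries held 209.1 and 201.4 with Nkx2.2, 173.1 and 216.9 with Nkx6.1, 201.6 and 226.9 with Nkx6.1-P2A-Nkx2.2, and 129.3 and 225.1 CPM with Nkx6.1-P2A-Olig2. P4ha2 was highest in the Nkx6.1 line, at 105.7 and 119.7 CPM against 97.3, 85.63, 65.89, 81.13 and 87.82 CPM (0.43 ± 0.14, edgeR adjusted p = 0.156). The other lines overlapped the controls, at 103.1 and 74.07 with Nkx2.2, 90.72 and 80.76 with Olig2, 101 and 88.18 with Nkx6.1-P2A-Nkx2.2, and 68.19 and 74.97 CPM with Nkx6.1-P2A-Olig2. Ero1l held 91.73, 74.8, 67.04, 68.61 and 77.24 CPM in the controls, 97.13 and 92.99 in Nkx6.1-P2A-Nkx2.2 cells, 90.51 and 118.2 in the Olig2 line (0.46 ± 0.13, edgeR adjusted p = 0.111), 81.54 and 99.9 with Nkx6.1, 67.6 and 72.13 with Nkx2.2, and 76.47 and 89.49 CPM with Nkx6.1-P2A-Olig2.

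Of the other hypoxia-induced genes beside Ddit4, Ndrg1, a stress-response protein used as a hypoxia marker, had the largest fitted difference in Nkx6.1-P2A-Nkx2.2 cells (1.03 ± 0.33, edgeR adjusted p = 0.13), at 52.23 and 57.78 CPM against 34.41, 27.81, 16.9, 24.25 and 31.34 CPM in the controls. It was as high in the Olig2 line, at 56.01 and 57.43 CPM (1.07 ± 0.33, edgeR adjusted p = 0.15), and ranged from 15.34 to 44.74 CPM between the libraries of Nkx6.1-P2A-Olig2 cells. When the label number was a term, edgeR called Ndrg1 with Nkx6.1-P2A-Nkx2.2 and with Olig2 (adjusted p = 0.0279 and 0.00517). Ankrd37 held 6.196 and 6.764 CPM in Nkx6.1-P2A-Nkx2.2 cells against 3.072 to 5.007 CPM (0.79 ± 0.23, edgeR adjusted p = 0.0968). The histone demethylase Kdm3a and the Myc antagonist Mxi1 had log2 fold changes from -0.04 to 0.34 over the lines, and neither passed by edgeR or DESeq2 (with the label number as a term, edgeR called Kdm3a with Nkx6.1-P2A-Nkx2.2, adjusted p = 0.0485). Adm and Car9 were near 1 CPM, from 0.3161 to 3.029 CPM over all libraries, where counting error is large.

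**Figure D3:**
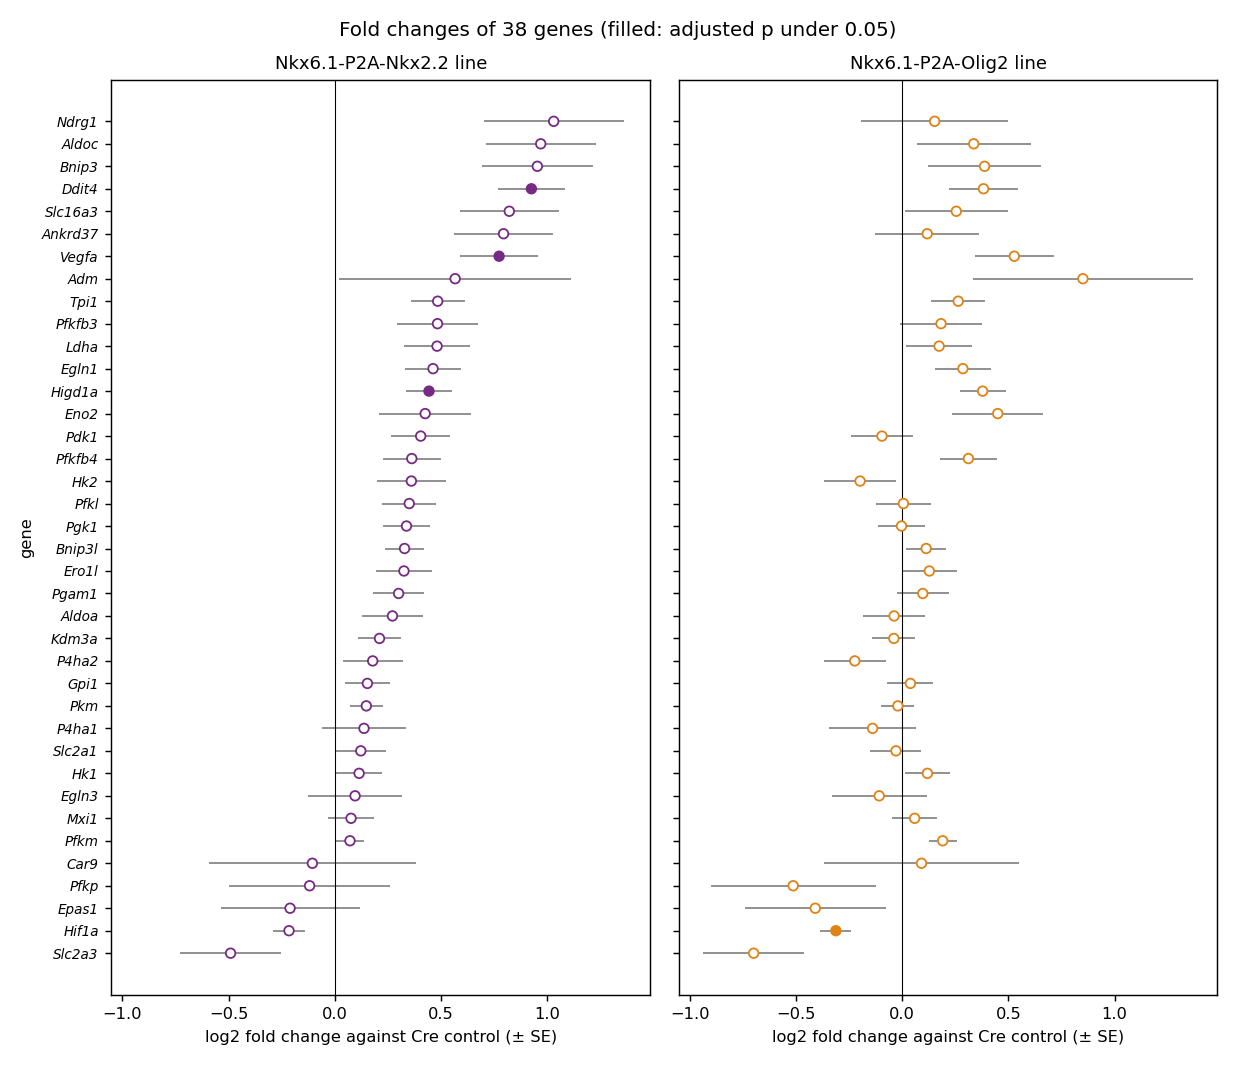
Log2 fold change against the Cre control, with its SE, of the 38 tested members in Nkx6.1-P2A-Nkx2.2 cells (left, 33 positive) and Nkx6.1-P2A-Olig2 cells (right, 24 positive), in the same order of genes. Filled points passed the test, 3 on the left and 1 on the right; both panels use the same 5 controls.

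How far the libraries of a line lay apart, relative to the shift of the line, differed between lines. The median absolute difference between the libraries was 0.11 in Nkx6.1-P2A-Nkx2.2 cells, against a median absolute shift of 0.335, and 0.35 in Nkx6.1-P2A-Olig2 cells, against 0.178. The median of the members in a library, as log2(CPM + 1) minus the control mean, ran from -0.118 to 0.175 among the controls themselves, with replicate 1 highest and replicate 3 lowest. It was 0.296 and 0.321 in the Nkx6.1-P2A-Nkx2.2 libraries, 0.159 and 0.3 with Nkx6.1, 0.101 and 0.261 with Olig2, 0.087 and 0.011 with Nkx2.2, and -0.119 and 0.216 with Nkx6.1-P2A-Olig2. Only Nkx6.1-P2A-Nkx2.2 cells had both libraries above the highest control. The 3 other lines whose second library was also above it each had a first library below it.

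**Figure D4:**
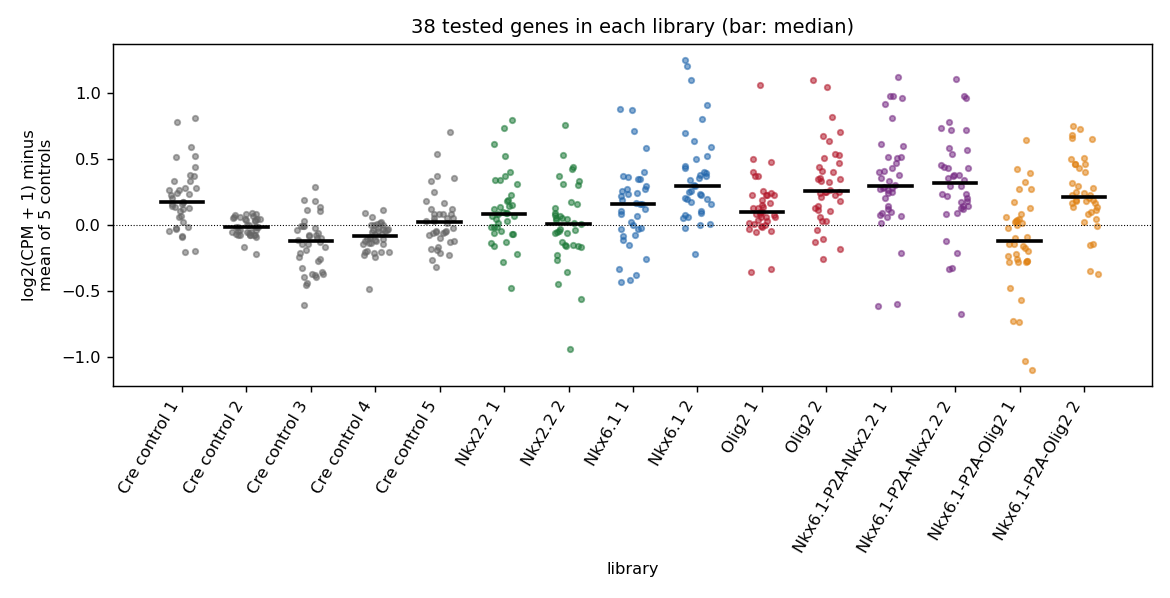
Log2(CPM + 1) minus the mean of the 5 Cre controls for the 38 tested members (points) in each library, with the median as a bar. The medians run from -0.119 in replicate 1 of Nkx6.1-P2A-Olig2 to 0.321 in replicate 2 of Nkx6.1-P2A-Nkx2.2, and control replicate 1 stands at 0.175.

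The libraries of Nkx6.1-P2A-Olig2 cells differed most from each other. Replicate 2 was above replicate 1 in 36 of 38 members (94.7%, against 48.3% of all genes), by a median of 0.315 on the log2 scale. Replicate 1 was the lowest of all 15 libraries in 11 of 38 members, against 7.16% of all genes. The difference between the libraries exceeded the shift of the line from the controls in 29 of 38 members (76.3%, against 54.7% of all genes). In Nkx6.1-P2A-Nkx2.2 cells this was so in 9 of 38 members (23.7% against 52.7%), and replicate 2 was the higher in 22 (57.9% against 49.5%). In the Nkx2.2, Nkx6.1 and Olig2 lines the difference exceeded the shift in 19, 19 and 20 members. These are 50%, 50% and 52.6%, below the 67%, 55.8% and 61% of all genes. Replicate 2 was the higher in 12, 31 and 31 (48.1%, 50.7% and 46.8% of all genes). Without replicate 1 of Nkx6.1-P2A-Olig2 the median log2 fold change of that line was 0.21, and without replicate 2 it was -0.12.

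**Figure D5:**
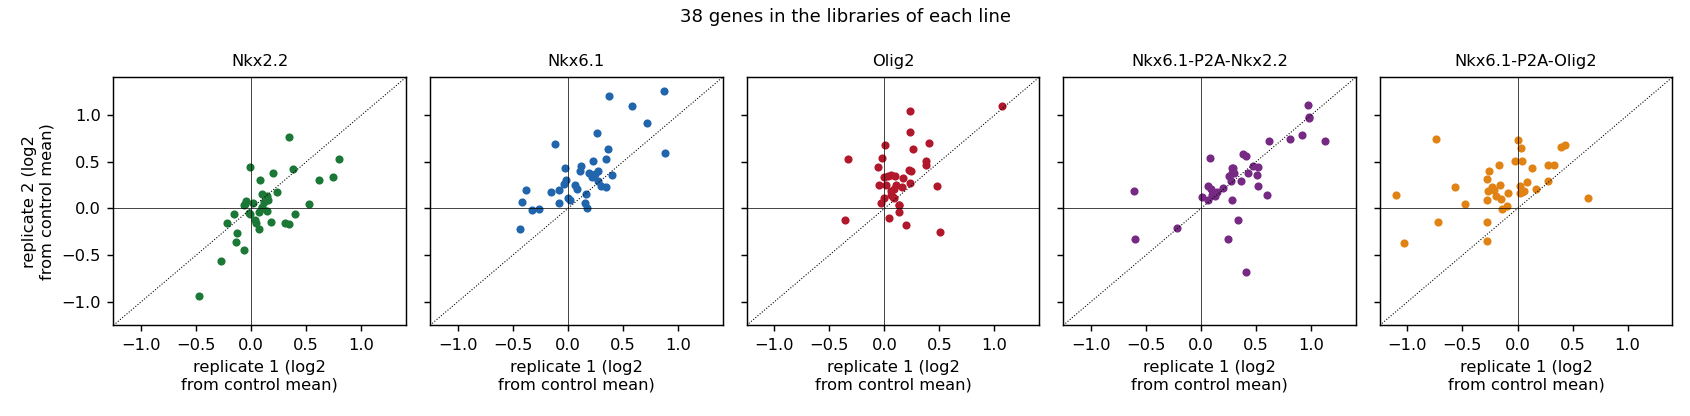
The 38 tested members in replicate 1 (horizontal) and replicate 2 (vertical) of each line, as log2(CPM + 1) minus the control mean, with the dotted line of equal values. Points of Nkx6.1-P2A-Olig2 cells lie above it in 36 of 38 members, those of Nkx6.1-P2A-Nkx2.2 cells in 22.

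The lines with both factors on 1 transcript share the label numbers 232 and 234, which allows a comparison within numbers. Nkx6.1-P2A-Nkx2.2 minus Nkx6.1-P2A-Olig2 was positive in 35 of 38 members at number 232 (49.2% of all genes), with a median of 0.431. At number 234 it was positive in 29 of 38 (48.3% of all genes), with a median of 0.108. Fitted together, the median difference was 0.22 and 0 of 38 members passed (0.164% of all genes, 0.0429% higher and 0.122% lower), with 7 at an unadjusted p under 0.05 (4.55%), all of them positive, and 0 by DESeq2. Against the control library of the same number, the median of the members was 0.389 and 0.331 in the Nkx6.1-P2A-Nkx2.2 libraries and -0.05 and 0.25 in the Nkx6.1-P2A-Olig2 libraries. It was 0.089 in replicate 1 of Nkx2.2, 0.199 in replicate 1 of Olig2 and -0.077 in replicate 1 of Nkx6.1, so the last was below the control of its own number, which was control replicate 1. The fit with the label number as a term gives this same comparison for the Nkx6.1 line.

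An F-test of the label number within groups, with 3 residual degrees of freedom, passed 8 of 38 members, against 13.3% of all genes. These were Epas1, Slc2a3, Ldha, Bnip3, Egln3, P4ha1, P4ha2 and Ero1l, with edgeR adjusted p from 0.003 (Epas1) to 0.0455 (Ldha). None of the 4 members that passed against the controls was among them, too few to set against the 13.3% of all genes. Variation within groups also counts against a call in the line test. In the 3 groups that have both numbers, 13 of 38 members were higher at 234 than at 232 every time (34.21%, against 22.32% of all genes) and 0 lower every time (22.73% of all genes). The count of 8 was 23 without replicate 1 or 2 of Nkx6.1-P2A-Nkx2.2 (22.5% and 22.2% of all genes) and 13 without control replicate 4 (22.5%). It was 5 and 4 without replicate 1 and 2 of Nkx6.1-P2A-Olig2 (5.2% and 4.34%), 4 without replicate 1 or 2 of Nkx2.2 (6.26% and 6.15%) or control replicate 2 (9.33%), and 3 without replicate 1 or 2 of Olig2 (5.93% and 6.32%) or control replicate 3 (5.3%).

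The pluripotency markers moved with some of these library differences. Among the controls, replicate 1 had both the highest median of the members and the highest sum of the 6 markers, 249.9 CPM, and replicate 3 the lowest of each, with 132.3 CPM. By group the sum ranged from 132.3 to 249.9 CPM in the controls, 103.7 to 153 with Nkx2.2, 154.3 to 224 with Nkx6.1, 105.7 to 233.9 with Olig2, 82.49 to 129.7 with Nkx6.1-P2A-Nkx2.2 and 88.35 to 95.16 with Nkx6.1-P2A-Olig2. Nkx6.1-P2A-Nkx2.2 cells thus had high members and low markers, and replicate 2 of Olig2 had more of the members and less of the markers than replicate 1. Of the 6 markers 0 passed in any line by edgeR. In bulk RNA, fewer cells of a type and less RNA per cell cannot be told apart, and the part of leftover stem cells or of library totals in the results was not tested.

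Of 25 other glycolysis genes tested, 1 rose with Nkx2.2 (0.279% of all genes rose), 1 with Nkx6.1 (0.172%), 0 with Olig2 (1.41%), 1 with Nkx6.1-P2A-Nkx2.2 (1.09%) and 2 with Nkx6.1-P2A-Olig2 (1.07%). None of them fell in a line, and the medians lay between -0.03 and 0.10. The gene that rose in each of the 4 lines was Eno3, the muscle enolase. It held 26.81 ± 2.145 CPM in the controls (SD, n = 5), 39.64 ± 0.676 with Nkx2.2, 41.72 ± 5.884 with Nkx6.1, 48.88 ± 0.159 with Nkx6.1-P2A-Nkx2.2 and 46.47 ± 1.873 with Nkx6.1-P2A-Olig2 (SD, n = 2 each), with log2 fold changes of 0.56, 0.64, 0.87 and 0.79 and edgeR adjusted p from 0.000193 to 0.0115. The Olig2 line stood at 32.09 ± 1.162 CPM. Ldhb, the heart-type lactate dehydrogenase subunit, rose in Nkx6.1-P2A-Olig2 cells (0.44 ± 0.09, edgeR adjusted p = 0.027).

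Of 43 other HIF pathway and hypoxia target genes tested, 1 fell in each of the 3 lines that carry Nkx6.1 (where 0.658% of all genes fell with Nkx6.1, 1.73% with Nkx6.1-P2A-Nkx2.2 and 1.81% with Nkx6.1-P2A-Olig2), 1 rose in the Olig2 line (1.41%) and 0 passed in the Nkx2.2 line, with medians between -0.001 and 0.19. The gene that fell was Cited2, which competes with HIF-1 alpha for the coactivators p300 and CBP. It held 81.22 ± 5.655 CPM in the controls (SD, n = 5), 54.5 ± 6.034 with Nkx6.1, 55.33 ± 3.368 with Nkx6.1-P2A-Nkx2.2 and 39.83 ± 7.422 with Nkx6.1-P2A-Olig2 (SD, n = 2 each), log2 fold changes of -0.58, -0.55 and -1.03 (edgeR adjusted p = 0.0366, 0.0209 and 0.000636). It held 95.48 ± 7.983 with Nkx2.2 and 67.53 ± 7.256 CPM with Olig2. Ccng2, a cyclin that slows the cell cycle, rose in the Olig2 line (0.51 ± 0.11, edgeR adjusted p = 0.0324).

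The integrated stress response also induces Ddit4. Of 24 genes of this response, Atf4 and Cth fell in Nkx6.1-P2A-Nkx2.2 cells (-0.42 ± 0.08 and -0.64 ± 0.16, edgeR adjusted p = 0.0123 and 0.0458), where 1.73% of all genes fell. Nars rose in the Olig2 line (0.62 ± 0.06), where 1.41% of all genes rose. The medians of the 24 genes lay between -0.06 and 0.04. Of 26 mitochondrial respiration genes, Atp5a1 rose in the Olig2 line (0.57 ± 0.06). Sdhb rose in Nkx6.1-P2A-Olig2 cells (0.31 ± 0.07, edgeR adjusted p = 0.0433), where 1.07% of all genes rose. The medians of the 26 genes lay between -0.03 and 0.10. Nars and Atp5a1 both lie on chromosome 18, where the 354 genes tested had a median of 0.522 in the Olig2 line against -0.007 elsewhere, and none of the 39 members lies there. Of 16 proliferation genes 0 passed in any line by edgeR, and their medians lay between -0.09 and 0.05.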

How the data were processed

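RNA from 15 samples of neural progenitors was sequenced after TruSeq library preparation, per the labels' protocols. The authors deposited whole-number counts per gene, and STAR, DESeq2 and mm10 are listed, without versions or roles, per the submitters' processing notes. Their second deposited table gives a ratio for 224 genes, each equal to the count over the control mean within a tolerance of 1e-06, and holds 0 members. Of 23420 rows, 27 carried a date in place of a gene name (0.228% to 0.253% of the counts) and were left out.

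CPM used TMM library sizes. Genes reaching 1 CPM in 2 or more libraries entered the quasi-likelihood test of edgeR 4.0.16 (R 4.3.3) in 1 model of 6 groups, with Benjamini-Hochberg adjustment over 13989 genes and a threshold of 0.05. Library values are log2(CPM + 1). Alternatives were DESeq2 1.42.0, limma 3.58.1, another scaling, other filters, robust fitting, only the groups compared, terms for replicate, label number and label series (21x or 23x), and each library left out. The scripts were tested on simulated data. The members and the other lists were chosen with earlier results of these data known. Values in every library were given for the members that passed in a line or the label number test, and for the regulators and usual reporters Hif1a, Epas1, Vegfa, Slc2a1, Pgk1, Ldha and Pdk1. Values in single libraries carry counting error, which is large near 1 CPM.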

Additional observations from a re-analysis of the deposited data

Results flagged for a closer look

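In 3 of the 38 tested members, 1 of the 5 Cre control libraries stood far from the other four, and each time it was replicate 1. Its Pdk1 level was 96.26 CPM, where the next control held 77.03 CPM. Its Slc16a3 level was 131.3 CPM, where the next held 85.23 CPM. Its Adm level was 2.291 CPM, where the next held 0.7813 CPM. Chance gives such a gap in about 1 of 20 groups. The 3 values come from the same library, so they are not independent, and the share of all genes with such a gap was not computed. The same library had the highest sum of the pluripotency markers among the controls, and the part of that in these values was not tested.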

How the results depend on the processing

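The 5 gene values that passed against the controls kept their direction under every alternative, while medians and counts of the members did not always. The members' median turned to -0.077 with Nkx6.1 under the label number, and to -0.025 with Nkx2.2 and -0.017 with Nkx6.1-P2A-Olig2 under the replicate block. The label number fit sets Nkx6.1 replicate 1 against control replicate 1 alone. Replicate numbers 3, 4 and 5 occur only in the Cre control. With the replicate block the lines were therefore compared with control replicates 1 and 2 only. Of the controls, replicate 1 had the highest median of the members. Shares of all genes that passed stand in brackets. With Nkx6.1 the count of 1 (0.829%) became 0 with the replicate block (0.279%), the label number (0.3%), the label series (0.429%) or only the groups compared (0.482%), and 4 with DESeq2 (3.47%). With Olig2 the count of 0 (1.82%) became 11 with the label number (14.8%) and 2 with DESeq2 (3.08%). With Nkx6.1-P2A-Nkx2.2 the count of 3 (2.82%) became 1 with the replicate block (2.47%) or the label series (1.47%), 19 with the label number (8.01%), 7 with only the groups compared (2.27%) and 9 with DESeq2 (4.65%). With Nkx6.1-P2A-Olig2 the count of 1 (2.88%) became 0 with the replicate block (2.59%), the label series (1.34%) or only the groups compared (2%), and 5 with the label number (9.31%). Over the 6 groups the count of 2 (6.27%) became 22 with the label number (17%) and 10 with DESeq2 (14.1%). The label number test went from 8 (13.3%) to 23 without a filter (17.1%). The causes were not tested. Leaving out 1 library at a time gave counts of 0 to 0 with Nkx2.2, 0 to 6 with Nkx6.1, 0 to 1 with Olig2, 0 to 5 with Nkx6.1-P2A-Nkx2.2, 0 to 1 with Nkx6.1-P2A-Olig2, 0 to 0 between the P2A lines, 1 to 4 over the 6 groups and 3 to 23 for the label number, where 4.34% to 22.5% of all genes passed. In the other tests the share of all genes that passed also changed with the library left out. A line left with 1 library was assumed to vary like the other groups. Of the gene values, 70 gained and 47 lost a call and 5552 did neither. Deviations of libraries with the same replicate number correlated over 0.1 in 17 of 30 pairs. Those with the same label number did so in 6 of 10, and those with different label numbers in 27 of 80. Deviations of the 2 libraries of a line mirror each other, so these pairs are not independent. Whether either number pairs the libraries cannot be told from these counts.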
